A study of Homo sapiens with 12 samples.

Results

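The genes that bring glucose into the cell and decide whether it stays there were followed in MIAPaCa2 cells, an established human pancreatic ductal adenocarcinoma (PDAC) line. Members were taken by symbol: the glucose transporter genes SLC2A1, SLC2A3, SLC2A6 and SLC2A8, the hexokinase genes HK1, HK2 and HKDC1, and the glucose 6-phosphatase gene G6PC3. They are 8 of the 26475 gene symbols measured, and all 8 passed the filter on low counts, as did 14582 symbols in all.

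RNA-seq was performed on 12 libraries in 4 groups of 3: parental cells after vehicle, parental cells after oxamate, oxamate-resistant cells after vehicle and oxamate-resistant cells after oxamate. Sodium oxamate is a pyruvate analog that competes for the active site of lactate dehydrogenase A (LDHA), and the sample labels call the vehicle groups untreated and the oxamate groups LDHA inhibitor. The resistant cells were the surviving population of the same line after 4 weeks in 10 mM oxamate, so every resistant library, vehicle included, had a history of the drug. All libraries come from 1 cell line, and the dose and duration of oxamate before RNA extraction are not given in the sources used here. The labels do not say that the 3 libraries of a group came from separate cultures, so the p-values measure the spread between these samples, which may be technical.

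Glucose crosses the plasma membrane through facilitative transporters of the GLUT family. GLUT1, encoded by SLC2A1, and GLUT3, encoded by SLC2A3, carry most basal uptake in many tumor cells, whereas GLUT6 (SLC2A6) and GLUT8 (SLC2A8) lie largely on intracellular membranes. Hexokinases then phosphorylate glucose to glucose 6-phosphate, which cannot leave through the transporters. G6PC3 is a ubiquitously expressed phosphatase of the endoplasmic reticulum that can hydrolyse glucose 6-phosphate, and its activity was not measured here. SLC2A1, SLC2A3 and HK2 are well known targets of hypoxia-inducible factors in tumor cells.

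Depth lay between 46698729 and 114222169 expected counts a library, and every parental library was deeper than every resistant one. Levels are given as CPM, counts scaled to a common library size with TMM factors, and 3 counts corresponded to between 0.0283 and 0.0581 CPM, for counting error only. The keratins KRT8 and KRT18 and VIM, which marks the mesenchymal character known for this line, had at least 37747 counts in every library. They were lower in resistant than in parental cells after vehicle, with log2 fold changes of -1.11 for KRT8, -0.69 for KRT18 and -0.59 for VIM, and after oxamate (-1.04, -0.83 and -0.72). Of the markers of other cell types, PRSS1 and INS were at 0 throughout, PTPRC, CELA3A and DCN had at most 3 counts, PECAM1 had 2 to 11 and COL1A1 had 56 to 137. COL1A1, a collagen gene, rose after oxamate in parental (0.74, edgeR adjusted p = 0.000588) and resistant cells (0.54, edgeR adjusted p = 0.0224). The part of these markers in the results was not tested. The nuclear-retained RNA MALAT1 was at 289, 281 and 596 CPM in the 3 oxamate-treated parental libraries and at 273, 244 and 597 CPM in the 3 vehicle-treated resistant libraries, so replicate 3 stood apart in each of these groups. It was at 183 to 199 CPM in vehicle-treated parental and 577 to 742 CPM in oxamate-treated resistant libraries, so it also moved with the groups. NEAT1, another nuclear-retained RNA, rose by 1.39 on the log2 scale in parental cells after oxamate (edgeR adjusted p = 0.000352) while its change in resistant cells was 0.68 (edgeR adjusted p = 0.0750). The part of these RNAs in the results was not tested. Each comparison below was also made without replicate 3 of these 2 groups. In that fit the members' calls at an adjusted p under 0.05 were kept, except that SLC2A6 after oxamate in parental cells was lost and SLC2A8 was gained between the oxamate-treated lines (adjusted p = 0.0279) and for the difference between the oxamate effects. Changes were assessed by the quasi-likelihood test of edgeR over all 12 libraries, with Benjamini-Hochberg adjustment over the 14582 genes, and a gene was called at an adjusted p under 0.05. The threshold of the study, an unadjusted p under 0.05 with a change of more than 1.5-fold, was applied separately. In bulk RNA, fewer cells of a kind and less RNA per cell cannot be told apart.

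The promoters of the members that moved in opposite directions in both lines are shown first, with SLC2A6, whose order of levels was the reverse of theirs. RefSeq windows on GRCh38.p14, from 250 bases before to 50 after a transcription start, were given for 7 of the 8 members, in 16 windows. SLC2A3 had no entry. Each window was searched on both strands for the core letters of a hypoxia response element, which are ACGTG, read as CACGT on the opposite strand. The variant core GCGTG, read there as CACGC, was searched likewise. The palindromic E-box CACGTG, which holds the first core on both strands, was searched as well. ACGTG was found in 21.4%, GCGTG in 36.5% and CACGTG in 7.26% of all 35116 RefSeq windows of this length. The matches are in capitals.
HK2 window 1, chr2:74833877-74834176, plus strand: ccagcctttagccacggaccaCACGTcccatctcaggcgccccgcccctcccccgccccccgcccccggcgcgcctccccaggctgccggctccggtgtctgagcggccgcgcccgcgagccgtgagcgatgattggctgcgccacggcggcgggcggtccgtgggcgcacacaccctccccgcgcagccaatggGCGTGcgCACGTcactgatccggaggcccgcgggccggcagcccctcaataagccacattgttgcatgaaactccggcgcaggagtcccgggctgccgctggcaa
HK2 window 2, chr2:74834920-74835219, plus strand: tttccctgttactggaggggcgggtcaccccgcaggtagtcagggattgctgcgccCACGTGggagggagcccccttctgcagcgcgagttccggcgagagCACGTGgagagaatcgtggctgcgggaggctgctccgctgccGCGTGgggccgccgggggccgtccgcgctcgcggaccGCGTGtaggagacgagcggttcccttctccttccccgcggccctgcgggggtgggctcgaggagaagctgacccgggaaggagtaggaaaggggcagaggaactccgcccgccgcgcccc
SLC2A1, chr1:42958819-42959118, minus strand: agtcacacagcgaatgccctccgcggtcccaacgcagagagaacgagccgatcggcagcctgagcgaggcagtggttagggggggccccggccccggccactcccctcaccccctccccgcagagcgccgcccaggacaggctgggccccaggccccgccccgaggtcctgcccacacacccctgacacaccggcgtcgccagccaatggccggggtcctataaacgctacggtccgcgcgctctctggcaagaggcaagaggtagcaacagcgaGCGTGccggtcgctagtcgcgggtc
HKDC1, chr10:69220082-69220381, plus strand: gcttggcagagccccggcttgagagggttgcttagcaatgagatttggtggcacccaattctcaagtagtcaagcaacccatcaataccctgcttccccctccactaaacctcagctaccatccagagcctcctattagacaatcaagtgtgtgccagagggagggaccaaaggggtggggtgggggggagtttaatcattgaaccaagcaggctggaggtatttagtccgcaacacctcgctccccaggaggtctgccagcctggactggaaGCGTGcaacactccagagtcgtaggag
SLC2A6, chr9:133479050-133479349, minus strand: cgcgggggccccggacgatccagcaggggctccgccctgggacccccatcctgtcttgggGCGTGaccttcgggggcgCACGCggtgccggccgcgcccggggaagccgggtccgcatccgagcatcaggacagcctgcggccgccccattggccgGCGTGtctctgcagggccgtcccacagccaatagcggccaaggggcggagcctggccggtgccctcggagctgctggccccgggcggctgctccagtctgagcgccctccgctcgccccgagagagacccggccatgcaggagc

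The first HK2 window held ACGTG at 2 places, both read as CACGT, and GCGTG at 1. The second HK2 window held CACGTG at 2 places and GCGTG at 2. SLC2A1 and HKDC1 each held GCGTG at 1 place, downstream of the start, and SLC2A6 held it at 3, all upstream. Among the members not printed, each of the 3 overlapping G6PC3 windows held CACGTG at 2 places, GCGTG was found in 2 of the 7 HK1 windows and none of the letters searched was found in the SLC2A8 window. A match is a description of these letters, and binding was not measured in these libraries.

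In parental cells, oxamate was followed by higher mRNA for the main transporters and for all 3 hexokinases. SLC2A1, the GLUT1 gene on chromosome 1 (chr1:42925375-42959176, GRCh38, minus strand), stood at 173, 168 and 168 CPM after vehicle and at 263, 263 and 261 CPM after oxamate. The groups did not overlap, and SLC2A1 changed by 0.63 on the log2 scale (standard error 0.02, edgeR adjusted p = 1.72e-11). SLC2A3, the GLUT3 gene (chr12:7919230-7936275, minus strand), stood at 343, 349 and 349 CPM after vehicle and 524, 527 and 511 CPM after oxamate. This was again a gap far wider than the spread within either group, or 0.59 on the log2 scale (standard error 0.02, edgeR adjusted p = 2.06e-11). Its fold change of 1.5015 lay just over the 1.5-fold limit of the study's threshold. It fell short of that limit with DESeq2, RLE factors, library size alone or no filter on low counts, and without replicate 1 of vehicle-treated or replicate 1 or 2 of oxamate-treated parental cells.

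HK2 (chr2:74833981-74893359, plus strand), the inducible hexokinase that binds the outer mitochondrial membrane, had the largest increase of the 8. It was at 237, 238 and 236 CPM after vehicle and at 389.7, 395 and 405 CPM after oxamate, which is 0.74 on the log2 scale (standard error 0.02, edgeR adjusted p = 4.08e-12). HK1 (chr10:69269984-69401884, plus strand), the hexokinase of most tissues, went from 314, 310.1 and 304 CPM to 415, 409 and 409 CPM (log2 fold change 0.41, edgeR adjusted p = 6.40e-10). HKDC1 (chr10:69220303-69267559, plus strand), a hexokinase-related gene 2424 bases upstream of HK1, was expressed far lower and rose by a similar factor, from 16.4, 16.4 and 16.7 CPM to 21.7, 22.5 and 22.7 CPM (log2 fold change 0.44, standard error 0.04, edgeR adjusted p = 9.55e-08).

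G6PC3 (chr17:44070735-44076344, plus strand) rose less, from 73.9, 71.8 and 71.1 CPM to 88.7, 86.7 and 84.3 CPM (log2 fold change 0.26, edgeR adjusted p = 1.02e-06). SLC2A6 (chr9:133471095-133479137, minus strand) went the other way, from 9.16, 9.53 and 8.83 CPM to 8.33, 8.40 and 8.52 CPM. Its log2 fold change was -0.13 (standard error 0.05, edgeR adjusted p = 0.0457). Over all 23 alternative analyses the adjusted p ran from 0.00389 to 0.171, and this call was lost in 16 of them. Among these 16 was the fit without replicate 3 of oxamate-treated parental and of vehicle-treated resistant cells (adjusted p = 0.0654). SLC2A8 (chr9:127397138-127408424, plus strand) had 24 to 77 counts in any library, and its groups overlapped in each of the 4 comparisons. Its log2 fold change here was -0.33 (95% interval -0.80 to 0.14, edgeR adjusted p = 0.219).

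In all, 6 of the 8 members were called higher and 1 lower, where 58.7% of all genes tested were called (28.3% higher and 30.4% lower). At the study's threshold SLC2A1, SLC2A3 and HK2 were called, all higher, against 9.88% of all genes in either direction (5.69% higher and 4.19% lower). The median log2 fold change was 0.42 for the members and 0.003 for all genes tested. The HK2 value exceeded that of 95.82% of genes, the SLC2A1 value that of 94.07% and the SLC2A3 value that of 93.31%. Samples did not overlap between the groups for 7 of the 8 members, and for 61.5% of all genes.

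**Figure D1:**
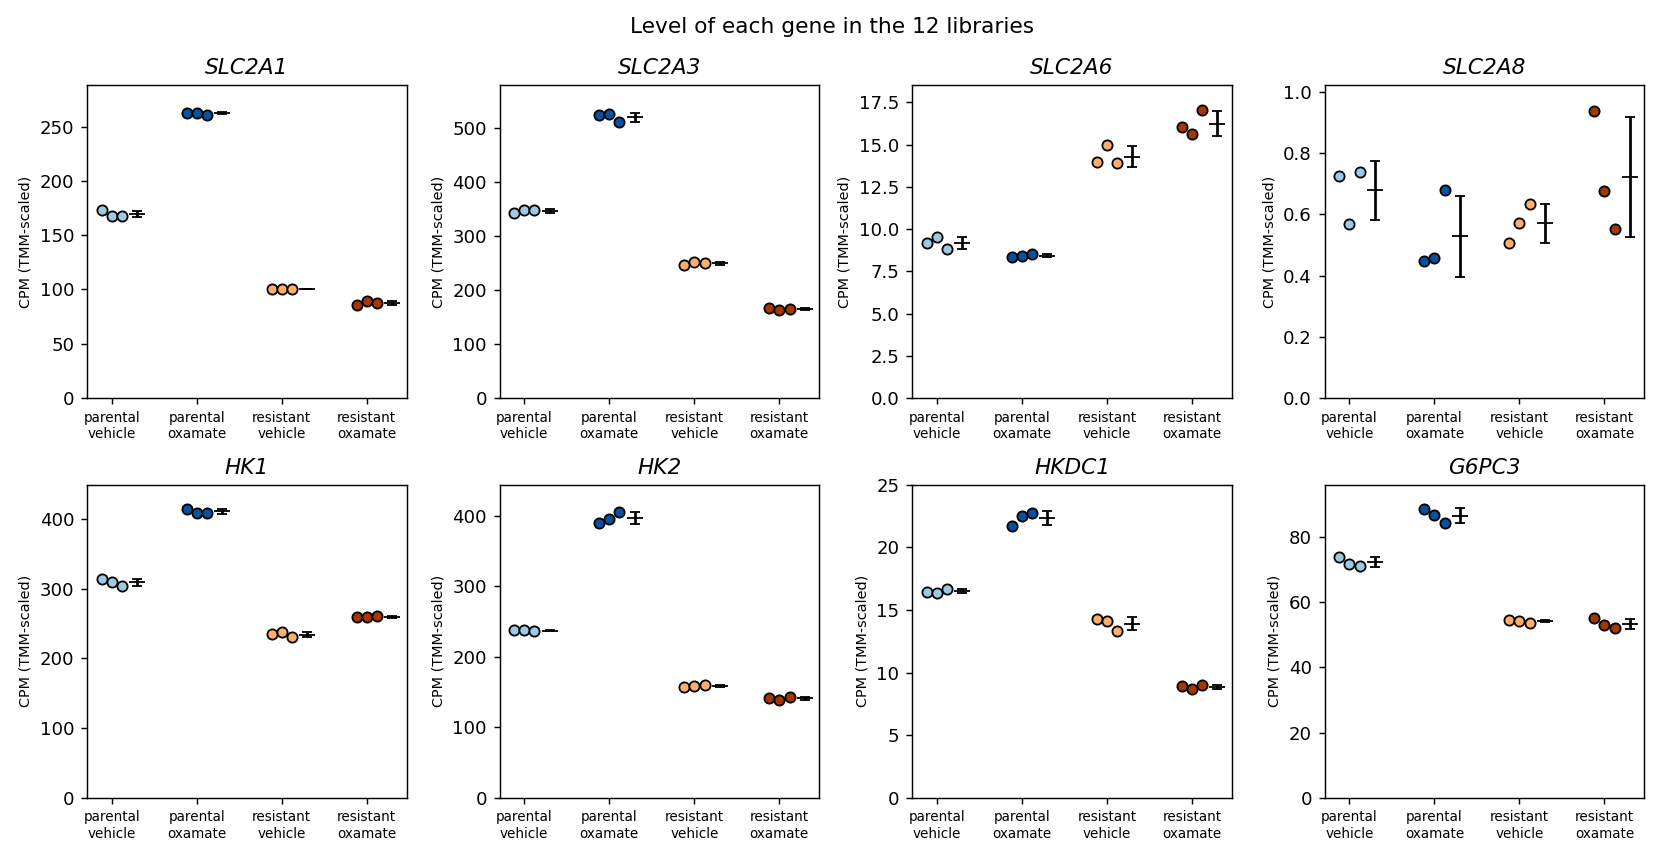
Level of each of the 8 genes in the 12 libraries, in CPM after TMM scaling on a linear axis from 0; points are libraries and the bar beside them is the mean ± SD of the 3 libraries of a group. SLC2A1, SLC2A3, HK2 and HKDC1 are highest in oxamate-treated parental and lowest in oxamate-treated resistant libraries, SLC2A6 is highest in the latter, and the SLC2A8 groups, with 24 to 77 counts a library, overlap.

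In oxamate-resistant cells, oxamate was followed by lower levels of SLC2A1, SLC2A3, HK2 and HKDC1. SLC2A3 fell from 247, 252.5 and 249.6 CPM after vehicle to 167, 163 and 165 CPM with oxamate, or -0.60 on the log2 scale (standard error 0.02, edgeR adjusted p = 1.68e-10). HKDC1 fell from 14.3, 14.1 and 13.3 CPM to 8.96, 8.67 and 8.98 CPM (log2 fold change -0.65, standard error 0.04, edgeR adjusted p = 9.06e-08). These are large falls for this comparison: a lower value than that of SLC2A3 was found for 0.58% of genes tested, and than that of HKDC1 for 0.45%.

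SLC2A1 and HK2 fell by less, and their groups still did not overlap. SLC2A1 stood at 100.3, 100.4 and 100.2 CPM after vehicle and 85.4, 89.0 and 87.7 CPM after oxamate (log2 fold change -0.20, edgeR adjusted p = 5.56e-05). HK2 stood at 157, 158 and 160.1 CPM and then at 141, 139 and 143 CPM (log2 fold change -0.16, edgeR adjusted p = 0.000263).

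HK1 and SLC2A6 were higher after oxamate in resistant cells. HK1 rose from 234, 237 and 230.4 CPM to 259.7, 259 and 261 CPM (log2 fold change 0.15, edgeR adjusted p = 0.000333). SLC2A6 rose from 13.98, 14.999 and 13.92 CPM to 16.04, 15.6 and 17.0 CPM (log2 fold change 0.18, edgeR adjusted p = 0.0142), a call lost without replicate 1 of vehicle-treated resistant cells (adjusted p = 0.0650) and without replicate 3 of oxamate-treated resistant cells (adjusted p = 0.0815). G6PC3 was not called, at 54.5, 54.3 and 53.7 CPM after vehicle and 55.0, 53.0 and 52.1 CPM after oxamate. The 95% interval of its log2 fold change was -0.09 to 0.04 (edgeR adjusted p = 0.626). That of SLC2A8 was far wider, from -0.16 to 0.82 (edgeR adjusted p = 0.326).

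The count in resistant cells was thus 2 members higher, 4 lower and 2 not called, where 21.5% of all genes tested were called (9.01% higher and 12.5% lower). SLC2A3 and HKDC1 were called lower at the study's threshold, at which 2.5% of all genes passed in either direction, 2.23% higher and 0.274%, or 40 genes, lower. With library size alone or upper-quartile factors in place of TMM, 1 member passed this threshold. Samples did not overlap between the groups for 6 of the 8 members and for 41% of all genes. The median log2 fold change was -0.09 for the members and 0 for all genes.

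The contrast of the oxamate effects, resistant minus parental, tests whether the lines responded differently. It was -1.18 for SLC2A3 (standard error 0.03, edgeR adjusted p = 3.34e-12), -1.09 for HKDC1 (standard error 0.06, edgeR adjusted p = 2.48e-09), -0.91 for HK2 (standard error 0.03, edgeR adjusted p = 5.70e-11) and -0.83 for SLC2A1 (standard error 0.03, edgeR adjusted p = 1.36e-10), on the log2 scale. These are the 4 members whose effect was called higher in parental and lower in resistant cells. Over all genes, 457 of 14582, or 3.13%, were called in this way, and the 2 comparisons share no library. HK1 rose in both lines and rose less in resistant cells, a difference of -0.26 (edgeR adjusted p = 8.84e-06). For G6PC3 the difference was -0.28 (edgeR adjusted p = 4.63e-05) and for SLC2A6 0.31 (edgeR adjusted p = 0.00202). The SLC2A8 difference of 0.66 was not called (95% interval -0.02 to 1.34, edgeR adjusted p = 0.109). In all, 1 member was called with a higher and 6 with a lower effect in resistant cells, where 44.2% of all genes were called (22.7% higher and 21.4% lower). At the study's threshold SLC2A1, SLC2A3, HK2 and HKDC1 were called, all lower, against 8.48% of all genes (5.54% higher and 2.94% lower). Without replicate 3 of oxamate-treated parental and of vehicle-treated resistant cells these 7 calls held and SLC2A8 was called as well, at 0.98 (adjusted p = 0.0299).

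**Figure D2:**
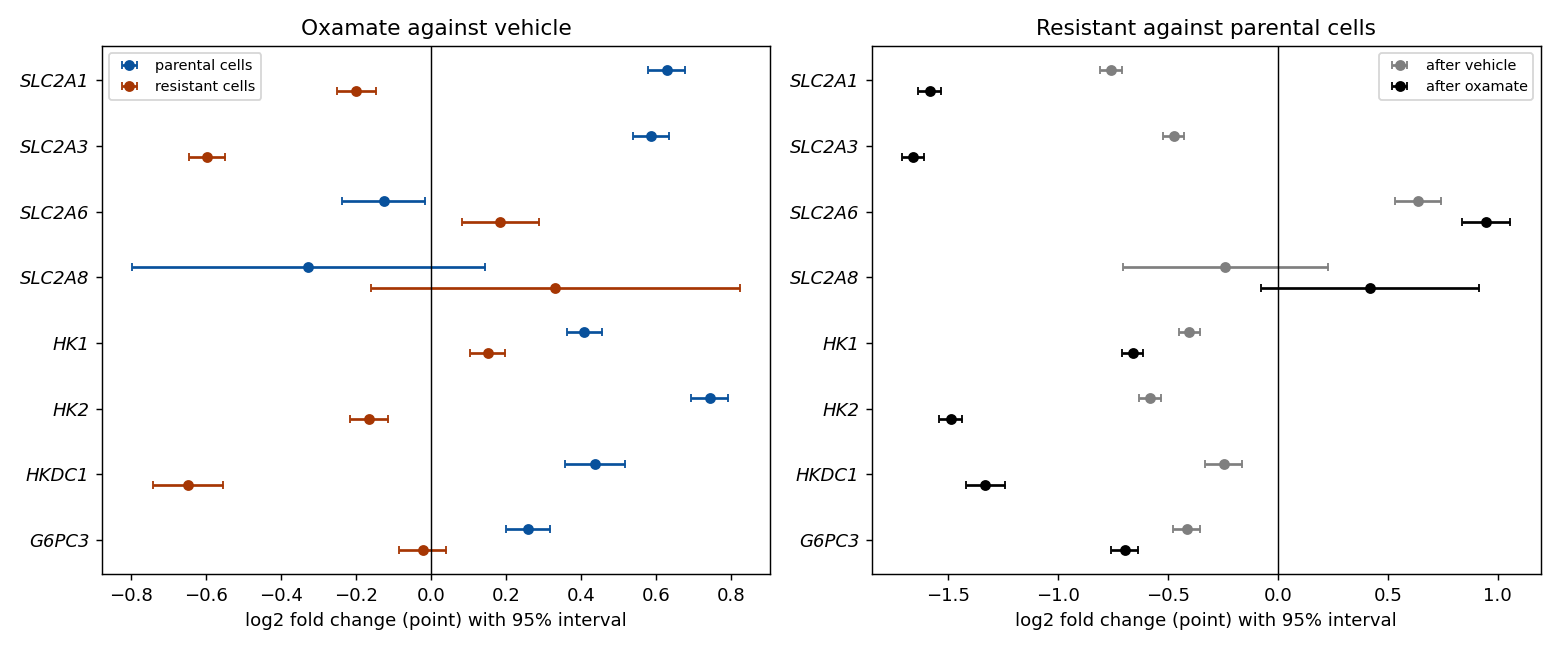
Log2 fold changes of the 8 genes with 95% intervals from the edgeR fit of 12 libraries: oxamate against vehicle in each line (left), and resistant against parental cells after each treatment (right). SLC2A1, SLC2A3, HK2 and HKDC1 lie right of 0 in parental and left of 0 in resistant cells on the left, and the difference between the lines widens after oxamate on the right, from -0.47 to -1.66 for SLC2A3.

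After vehicle, resistant cells already held less mRNA of 6 members than parental cells. From the values above, SLC2A1 was the most reduced, at 100.3 ± 0.124 CPM against 169.6 ± 3.09 CPM (SD, n = 3 each; log2 fold change -0.76, edgeR adjusted p = 1.67e-13). HK2 followed at -0.58, just inside the 1.5-fold limit with 1.4966-fold, then SLC2A3 at -0.47, G6PC3 at -0.42 and HK1 at -0.40. HKDC1 was lower by a log2 fold change of -0.25 (edgeR adjusted p = 3.50e-05), a call that was lost with library size alone (-0.03, adjusted p = 0.556). SLC2A6 was the exception, at 14.3 ± 0.608 CPM in resistant against 9.17 ± 0.349 CPM in parental cells (SD, n = 3 each; log2 fold change 0.64, edgeR adjusted p = 7.47e-09). SLC2A8 was not called (log2 fold change -0.24, 95% interval -0.71 to 0.23).

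The count was 1 member higher and 6 lower, where 75.7% of all genes were called (38.4% higher and 37.3% lower) and 77.6% did not overlap. The lines thus differed in most genes tested, and the share of members called was near that background. At the study's threshold SLC2A6 was higher and SLC2A1 lower, against 23.4% of all genes (17.2% higher and 6.14% lower). Depth, which was higher in every parental library, cannot be told apart from the line here. Library size alone in place of TMM shifted the median of all genes by 0.219 (log2) here, by 0.324 between the oxamate-treated lines and by 0.105 for the difference between the oxamate effects, and no member changed sign in these comparisons.

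After oxamate the same comparison gave wider differences. SLC2A3 stood at 165 ± 2.32 CPM in resistant and 521 ± 8.43 CPM in parental cells (SD, n = 3 each), 3.16-fold lower (log2 fold change -1.66, standard error 0.02, edgeR adjusted p = 1.59e-17). SLC2A1 was 3.00-fold lower (log2 fold change -1.59), HK2 2.81-fold lower (-1.49) and HKDC1 2.52-fold lower (-1.33). Fewer than 1% of genes tested had a lower value than SLC2A3, SLC2A1 or HK2, at 0.70%, 0.85% and 0.99%. G6PC3 was lower by a log2 fold change of -0.70 and HK1 by -0.66. SLC2A6 was 1.93-fold higher, at 16.2 ± 0.734 against 8.42 ± 0.0953 CPM (SD, n = 3 each; log2 fold change 0.95, edgeR adjusted p = 5.26e-11).

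This was 1 member higher and 6 lower at both thresholds. With library size alone, HK1 (-0.34) and G6PC3 (-0.37) fell short of the 1.5-fold limit and SLC2A8 passed it, so that 2 members were higher and 4 lower, and with upper-quartile factors 5 were lower. The background was 80.3% of all genes at an adjusted p under 0.05 (40.6% higher and 39.7% lower) and 34.3% at the study's threshold (22.9% higher and 11.4% lower), and 81.2% of genes did not overlap. The median log2 fold change was -1.01 for the members and 0.015 for all genes. SLC2A8 was not called (0.42, edgeR adjusted p = 0.109), although it was in 4 of 23 alternatives.

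Ordered by level, SLC2A1, SLC2A3, HK2 and HKDC1 were highest in oxamate-treated parental cells, then in vehicle-treated parental, vehicle-treated resistant and oxamate-treated resistant cells, and each neighbour in that order differed beyond the spread. G6PC3 had the same order, but its resistant groups did not differ beyond theirs. HK1 had both resistant groups exchanged. SLC2A6 had the full reverse order of means, but its call in parental cells was lost in 16 of 23 alternatives and that in resistant cells in 2. The HKDC1 step between the vehicle-treated lines was lost with library size alone. For SLC2A8 no neighbours differed. Across the 12 libraries, log2 CPM of SLC2A1 and HK2 had a Pearson correlation of 0.99, SLC2A3 and HKDC1 of 0.99 and SLC2A1 and SLC2A6 of -0.96. These are descriptions over n = 12 libraries that share 4 group means, depth and scaling.

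The balance between family members was also measured within each library, where scaling cancels. The ratio of HK2 to HK1 counts was 0.755, 0.767 and 0.776 in vehicle-treated and 0.94, 0.966 and 0.992 in oxamate-treated parental libraries. It was 0.668, 0.668 and 0.695 in vehicle-treated and 0.544, 0.538 and 0.549 in oxamate-treated resistant libraries. HK2 therefore gained on HK1 after oxamate in parental cells and lost in resistant cells, and the groups did not overlap in any of the 4 comparisons. The exact two-sided permutation test gave p = 0.1 in each, the smallest that 3 against 3 allows. The log2 difference of the ratio was 0.33 in parental and -0.32 in resistant cells.

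The ratio of SLC2A3 to SLC2A1 behaved differently. It was 2.05 ± 0.0552 in vehicle-treated and 1.99 ± 0.0249 in oxamate-treated parental libraries, and these overlapped (exact permutation p = 0.3, n = 3 each). In resistant cells it was 2.49 ± 0.0260 after vehicle and 1.89 ± 0.0660 after oxamate, without overlap (exact permutation p = 0.1, the smallest possible, n = 3 each). SLC2A3 and SLC2A1 thus rose by like factors in parental cells, whereas SLC2A3 fell by more in resistant cells.

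**Figure D3:**
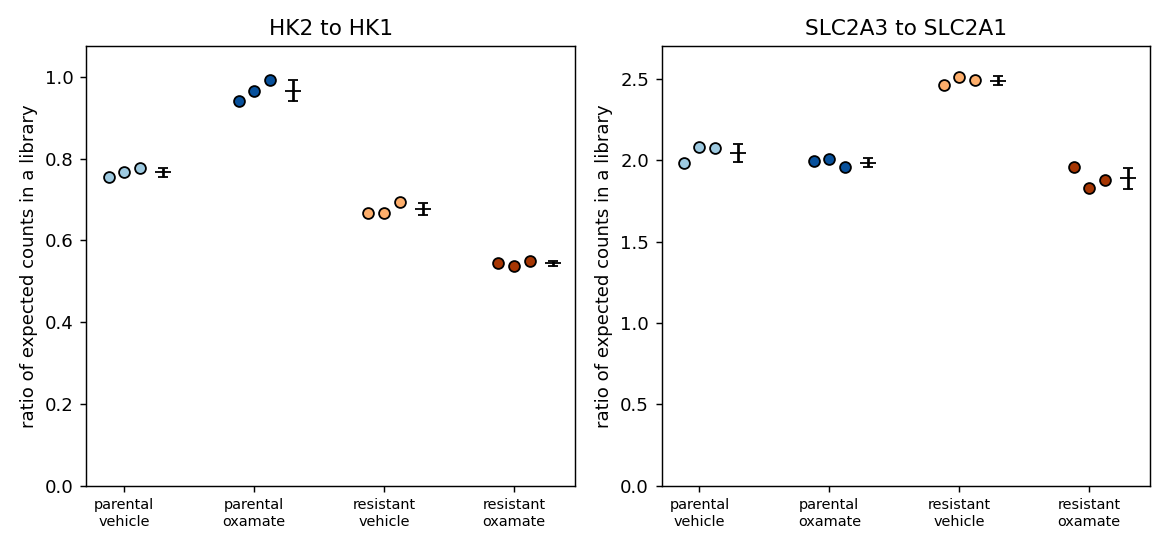
Ratio of HK2 to HK1 (left) and of SLC2A3 to SLC2A1 (right) expected counts within each of the 12 libraries, on linear axes from 0, with the mean ± SD of each group of 3 beside the points. The HK2 to HK1 ratio is highest, at a mean of 0.966, in oxamate-treated parental and lowest, at 0.544, in oxamate-treated resistant libraries; the SLC2A3 to SLC2A1 ratio is highest, at 2.49, in vehicle-treated resistant libraries.

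To compare levels between genes, counts were divided by transcript length, the median of a gene's GENCODE basic transcripts. The length was chosen after the data had been seen, and for the SLC2A6 shares and the place of SLC2A1 the values with the longest transcript are given too. Per length, HK2 made up 33.6% ± 0.290 of the 3 hexokinase mRNAs in vehicle-treated and 38.9% ± 0.602 in oxamate-treated parental cells, and 30.8% ± 0.518 and 26.8% ± 0.205 in resistant cells (SD, n = 3 each). HK1 was the main hexokinase mRNA in every group, from 57.8% to 70.7%, and HKDC1 made up 2.52% to 4.04%. With the longest transcript the lowest of these means was 2.62%. Among the 4 transporters, SLC2A6 made up 2.19% and 1.33% in parental cells after vehicle and oxamate, and 5.03% and 7.41% in resistant cells. With the longest transcript these shares of SLC2A6 were 2.62%, 1.60%, 5.83% and 8.83%, in the same order. SLC2A3 had the highest level per length of the 8 genes in 3 of the groups and HK1 in oxamate-treated resistant cells, with either length. The place of SLC2A1 depended on the choice: in vehicle-treated parental cells it was at 80.5 CPM per kilobase, behind SLC2A3 alone, by the median length and at 46.2 CPM per kilobase, behind SLC2A3, HK1 and G6PC3, by the longest.

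The genes with the most similar pattern to SLC2A3, HK2 and HKDC1 were sought by Pearson correlation of log2 CPM over the 12 libraries, leaving out means under 8 CPM, which left 9622 candidates. They were PCGF2 (0.995), MAFF (0.994) and KLF10 (0.993) for SLC2A3. For HK2 they were NEK9 (0.997), CIC (0.9965) and CFD (0.996), and for HKDC1 they were CXCR4 (0.997), ANKRD37 (0.993) and SREBF2 (0.992). Likeness of pattern is not likeness of size: CXCR4 was at 8.88, 15.6, 6.50 and 3.28 CPM and NEK9 at 216, 253, 188 and 184 CPM in vehicle- and oxamate-treated parental and then vehicle- and oxamate-treated resistant cells.

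A near-copy of SLC2A3 and an antisense partner of SLC2A1 could share reads with these 2 members. Of the 3816 stretches of 100 bases in SLC2A3 transcripts, 269, or 7.05%, also occur in SLC2A14, its near-copy 28081 bases away. SLC2A14 had 1.08 to 12.3 counts in any library, and SLC2A3 had at least 8409. No such stretch is shared by SLC2A3 and SLC2A1 or between the hexokinases. SLC2A1-AS1 overlaps SLC2A1 by 128 bases on the other strand, and the library kit does not mark strand, so reads from the overlap cannot be told apart. SLC2A1-AS1 had 13.02 to 81 counts, against at least 4464 for SLC2A1. Its log2 fold change was 0.88 in parental cells (edgeR adjusted p = 0.00104), and the part of SLC2A1 reads in it was not tested.

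The remaining GLUT genes that could be tested had log2 fold changes after oxamate between -0.22 and 0.32. Of 10 listed, 5 passed the count filter, and SLC2A2 had 0 counts while SLC2A5, SLC2A7 and SLC2A9 had at most 2. In parental cells SLC2A11 and SLC2A13 rose and SLC2A12 fell after oxamate, and in resistant cells none of the 5 was called. The shares called over all genes tested were 58.7% in parental and 21.5% in resistant cells. The oxamate effects differed for SLC2A11 (-0.24, edgeR adjusted p = 0.00425) and SLC2A12 (0.22, edgeR adjusted p = 0.0125), whereas SLC2A10 had a difference of 0.18 (edgeR adjusted p = 0.0550). The SLC2A11 call was lost with library size alone (-0.14, adjusted p = 0.0876), and the SLC2A12 call without replicate 3 of oxamate-treated parental and of vehicle-treated resistant cells (adjusted p = 0.0658). Of the 6 sodium-coupled and SWEET sugar transporters 3 were tested, and the SWEET gene SLC50A1 was higher in parental (0.29) and lower in resistant cells (-0.15) after oxamate, a difference of -0.44 (edgeR adjusted p = 1.42e-06).

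Among the other genes that make, hydrolyse or move glucose 6-phosphate, ADPGK and SLC37A4 passed the count filter. HK3 had at most 2 counts, and G6PC and G6PC2 had 0. For ADPGK, whose enzyme phosphorylates glucose with ADP, the effects differed by -0.16 (edgeR adjusted p = 0.0150), and with library size alone this call was lost (-0.06, adjusted p = 0.348). SLC37A4, the glucose 6-phosphate transporter of the endoplasmic reticulum, had a difference of -0.06 (edgeR adjusted p = 0.363).

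Of the users of glucose 6-phosphate reported here, GPI, PGM1, PGM2 and H6PD rose in parental cells after oxamate, and GPI and PGM1 in resistant cells. GPI, which passes glucose 6-phosphate down glycolysis, rose in both, with a log2 fold change of 0.86 in parental and 0.30 in resistant cells (difference -0.56, edgeR adjusted p = 7.71e-09). PGM1, which links it to glycogen, had 0.45 in parental cells, 0.08 in resistant cells (edgeR adjusted p = 0.0459, and 0.0778 with DESeq2) and a difference of -0.37 (edgeR adjusted p = 1.54e-06). PGM2 had a difference of -0.17 (edgeR adjusted p = 0.0182), lost with library size alone (-0.07, adjusted p = 0.306).

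Of the 7 genes for proteins that traffic GLUT1 or dock hexokinase, 6 were tested, ARRDC4 being at 0 counts. TIGAR, a fructose 2,6-bisphosphatase that can bind HK2 at mitochondria, had the largest change. It was at 11.1, 11.0 and 11.9 CPM after vehicle and 4.74, 5.25 and 4.90 CPM after oxamate in parental cells (log2 fold change -1.19, edgeR adjusted p = 6.70e-10). In resistant cells it was between 12.97 and 13.93 CPM after vehicle and at 13.1, 11.2 and 11.9 CPM after oxamate, with overlap (log2 fold change -0.14, edgeR adjusted p = 0.106). The difference of 1.05 was called (edgeR adjusted p = 2.17e-07), opposite in sign to that of HK2. TXNIP, whose protein lowers GLUT1 at the cell surface, had 0.29 in parental and -0.10 in resistant cells (difference -0.38, edgeR adjusted p = 5.15e-07), and VDAC2, a mitochondrial channel gene, a difference of -0.19 (edgeR adjusted p = 0.000788).

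**Figure D4:**
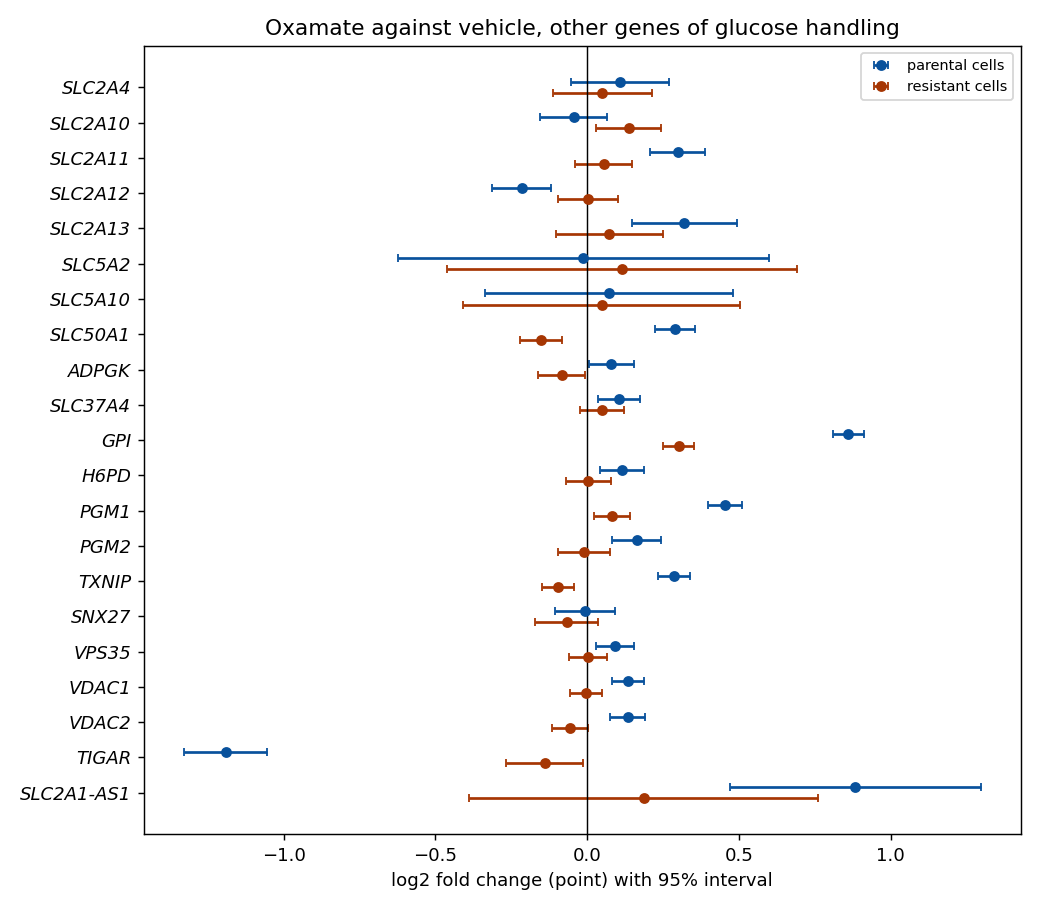
Log2 fold change after oxamate, with 95% intervals from the edgeR fit, in parental and resistant cells for other tested genes of glucose handling and SLC2A1-AS1. GPI is higher in both lines (0.86 and 0.30), TIGAR has the lowest value in parental cells (-1.19), and SLC5A2, SLC5A10 and SLC2A1-AS1, with at most 96.4 counts in any library, have the widest intervals.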

How the data were processed

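RNA-seq libraries were prepared from oligo(dT)-selected RNA with a kit that does not mark strand. According to the methods and processing notes, the authors aligned reads with Bowtie2 2.1.0 to UCSC transcripts (hg38) and estimated expression with RSEM 1.2.15, and they deposited the resulting expected counts per gene symbol without normalization; 11.6% were not whole numbers. The methods also name STAR and featureCounts. RSEM divides reads shared by several transcripts, so near-copies carry uncertain counts.

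Here the expected counts were rounded, and edgeR 4.0.16 (R 4.3.3) was run with its default low-count filter, TMM factors, glmQLFit and glmQLFTest on the means of the 4 groups, tested on simulated data. Ratios used exact permutation tests. Alternatives were RLE, upper-quartile and library-size scaling, other count filters, unrounded counts, a replicate block, DESeq2 1.42.0, limma-voom (limma 3.58.1), fits on the compared libraries, and libraries left out; the transcript length for shares was chosen after the data were seen. Groups came from the labels. The members were all named, and of each other list up to 3 genes with the smallest p for the difference between oxamate effects, plus near-copies and antisense partners. H6PD, SLC2A13 and the members of lists at or near 0 were named outside this rule, after their values were seen, and some listed genes are not reported here. Members and lists were chosen with earlier results of these data known. Gene positions, lengths and shared stretches came from GENCODE 29 (GRCh38) and promoters from RefSeq. The labels give replicate numbers no meaning. In deviations from group means, the 3 same-number pairs of the resistant groups correlated by 0.112, 0.223 and 0.44 (other pairs there by -0.346 to 0.173), which met the limit of 0.1 set for pairing. In each of the other comparisons at least 1 pair did not, and over all 18 same-number pairs the range was -0.28 to 0.44. Library totals, as given above, set the counting error and not the spread between libraries.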

Additional observations from a re-analysis of the deposited data

Results flagged for a closer look

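For 7 members the oxamate effect differed between the lines by the test of the difference itself, resistant minus parental on the log2 scale (edgeR, Benjamini-Hochberg). The difference was -0.83 for SLC2A1 (standard error 0.03), -1.18 for SLC2A3 (0.03), -0.91 for HK2 (0.03) and -1.09 for HKDC1 (0.06), whose effects had opposite signs in both lines. It was -0.26 for HK1 (0.03), which rose in both lines, and -0.28 for G6PC3 (0.04), which was called in parental cells only. It was 0.31 for SLC2A6 (standard error 0.07, adjusted p = 0.00202), the only member called with a more positive effect in resistant cells. Of all genes tested, 44.2% were called by this test. Depth differed between the lines, and its part in these differences was not tested.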

How the results depend on the processing

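Of 1280 recomputed member values, 1248 kept their direction and side of the threshold, 20 lost and 6 gained a call, and 6 changed sign without being called. The cause was not tested. With library size alone, 1 member instead of 3 passed the study's threshold in parental cells after oxamate, 1 instead of 2 in resistant cells and 1 instead of 2 between the lines after vehicle; upper-quartile factors left 1 in resistant cells. DESeq2, RLE factors and no low-count filter each left 2 of 3 in parental cells. G6PC3 in resistant cells became 0.0012 with upper-quartile factors and 0.0083 with library size alone. HK1 in oxamate-treated resistant against vehicle-treated parental cells went from -0.25 to -0.002 (adjusted p = 0.928) with library size alone. With libraries left out in turn, SLC2A8 ran from -0.1355 to 0.263 in that comparison and from -0.0208 to 0.3334 in vehicle-treated resistant against oxamate-treated parental cells. Over all genes in resistant cells, 365 passed the study's threshold, against 209 with a mean count of at least 25, 231 with DESeq2 and 597 without replicate 3 of oxamate-treated parental and of vehicle-treated resistant cells; leaving out single libraries gave 282 to 570, the highest without replicate 3 of vehicle-treated resistant cells. At an adjusted p under 0.05 the 3139 genes became 1795 to 3889 with single libraries left out and 4303 without both of those libraries; the counts without replicate 1 or 2 of vehicle-treated resistant cells (1850 and 1795) or replicate 3 of oxamate-treated resistant cells (1886) moved over 1.5 times. The replicate block gave 3750 instead of 3139 genes in resistant cells and changed no member's call there. All same-number pairs there met the limit for pairing, but the lowest (0.112) lay below the highest other pair (0.173). In parental cells, where not all same-number pairs met the limit, the block gave 8813 instead of 8563 and SLC2A6 lost its call (adjusted p = 0.0532). The depth limits SLC2A8 most, at 24 to 77 counts.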
